A study of Phaseolus coccineus with 4 samples.

Results

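Transcripts of glutathione S-transferases (GSTs) were followed in globular-stage embryos of Phaseolus coccineus, the scarlet runner bean, through 42 of the 37593 soybean probe sets on an Affymetrix soybean array. The members are the probe sets whose single gene symbol in the platform annotation starts with GST. They carry 24 different symbols, taken here as genes, of which 14 are of the tau class (GSTU, 24 probe sets) and 2 of the phi class (GSTF, 4 probe sets). The others are 4 lambda (GSTL), 2 theta (GSTT) and 2 zeta (GSTZ) probe sets, and 6 whose symbols, GST24, GST3, GSTa and GSTIR, name no class. A further 4 probe sets whose annotation joins a GST symbol with another symbol were not counted as members. No sequence of these genes or probes was used here.

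GSTs join the sulfur-bearing tripeptide glutathione to reactive or foreign compounds, and the conjugates are then moved into the vacuole by transporters of the ABC type. The tau and phi classes are large in plants and are known for herbicide detoxification and for induction by stress and hormones. Phi members also help to bring anthocyanins to the vacuole in Arabidopsis. Lambda enzymes hold a cysteine in the active site and reduce glutathione adducts, zeta enzymes act in tyrosine breakdown, and theta enzymes reduce organic peroxides.

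Each region of the embryo, the embryo proper that forms the plant and the suspensor that joins it to the seed tissue, was represented by 2 laser-cut samples taken 6 days after hand pollination from the cultivar Hammond's Dwarf Red Flower. All 4 samples share this cultivar, stage and growth regime, with no mutant or treatment among them. The labels call the samples biological replicates without naming the plants behind them, so p-values speak of the spread among these samples alone, which may be technical. Each sample was hybridised to 1 array after amplification of its RNA. Bean RNA was read by soybean probes, and transcripts whose sequence departs from the soybean probe hybridise weakly, so that dim signals need not mean scarce transcripts.

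As background served, per array, the 95th percentile of 23350 probe sets for Phytophthora and a nematode, soybean pathogens, called pathogen probe sets below. The level ranged from 873 to 1034, and between 19.5% and 23.3% of soybean probe sets were above it. Some pathogen probe sets were bright, with highest signals of 370079 on embryo proper array 1 and 832087 on suspensor array 2. On all 4 arrays 228 of them were above the level, for a reason not tested. A value below the level therefore need not mean that no transcript was read. Input RNA was about 60 and 75 ng for the embryo proper and 106 and 137 ng for the suspensor, and the hybridisation spikes had median signals of 46706 and 58957 in embryo proper, against 97327 and 159448 in suspensor. These differences move with region, and their part in the values below was not tested. In bulk samples, fewer cells of a type and less RNA per cell cannot be told apart. By symbol, the marker lists matched 1 suspensor, 1 embryo proper, 5 endosperm, 1 seed coat and 3 vascular probe sets, of which 0, 0, 1, 0 and 2 passed background on 2 or more arrays. The suspensor match, GA20OX3, a gibberellin biosynthesis gene, and the seed coat match, ANR1, an anthocyanidin reductase, did not exceed background on any array, and the embryo proper and endosperm matches, MP2 and EXP symbols, matched by letters and need not be markers. The labelled regions could therefore not be checked by these lists. The vascular match was SUT1, a sucrose transporter.

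Few GST probe sets gave a signal that stood out from the background in either region. Of the 42 GST probe sets, 3 were above background on embryo proper array 1, 2 on embryo proper array 2, 1 on suspensor array 1 and 3 on suspensor array 2. In all, 9 of 168 GST values, or 5.36%, were above background. The definition of the level puts 5% of the pathogen values above it, and 21.9% of all soybean values were above it. Among the 1676 soybean probe sets with a gene symbol other than a LOC placeholder the share was 23.5%. The plot of shares by array shows the GST bars beside those of the pathogen probe sets. On each of the 4 arrays they are below the bars of all soybean probe sets. These shares are descriptions and were not tested against each other.

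**Figure D1:**
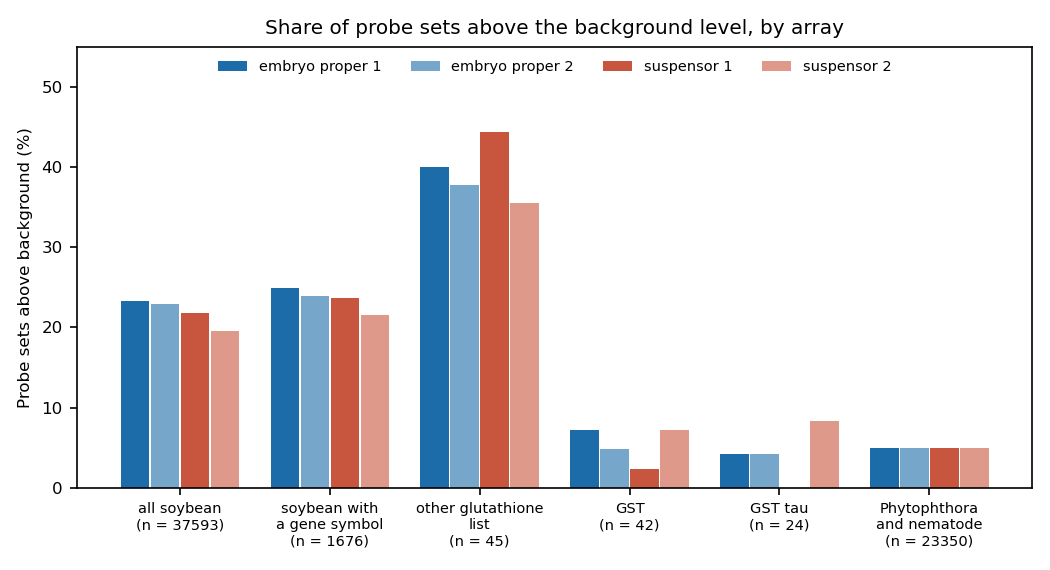
Share of probe sets (%) above the background level on each of the 4 arrays, for 6 sets of probe sets with their sizes; blue bars are embryo proper and red bars suspensor. GST bars lie between 2.38% and 7.14%, against 19.5% to 23.3% for all soybean probe sets and 5% for the pathogen probe sets, labelled Phytophthora and nematode.

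Few tau and phi probe sets were above background. Of 24 tau probe sets, 1 was above background on each embryo proper array, 0 on suspensor array 1 and 2 on suspensor array 2. These are 4 of 96 tau values, or 4.17%, beside 5% of pathogen values and 21.9% of all soybean values. Of 4 phi probe sets, 1 was above background on embryo proper array 1 and 1 on suspensor array 2, the same probe set each time, so 2 of 16 phi values, or 12.5%, were above. With 4 probe sets a single member makes the whole difference between the classes. All 4 lambda and both zeta probe sets were below background on all 4 arrays, and of 2 theta probe sets 1 was above on 1 array.

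**Figure D2:**
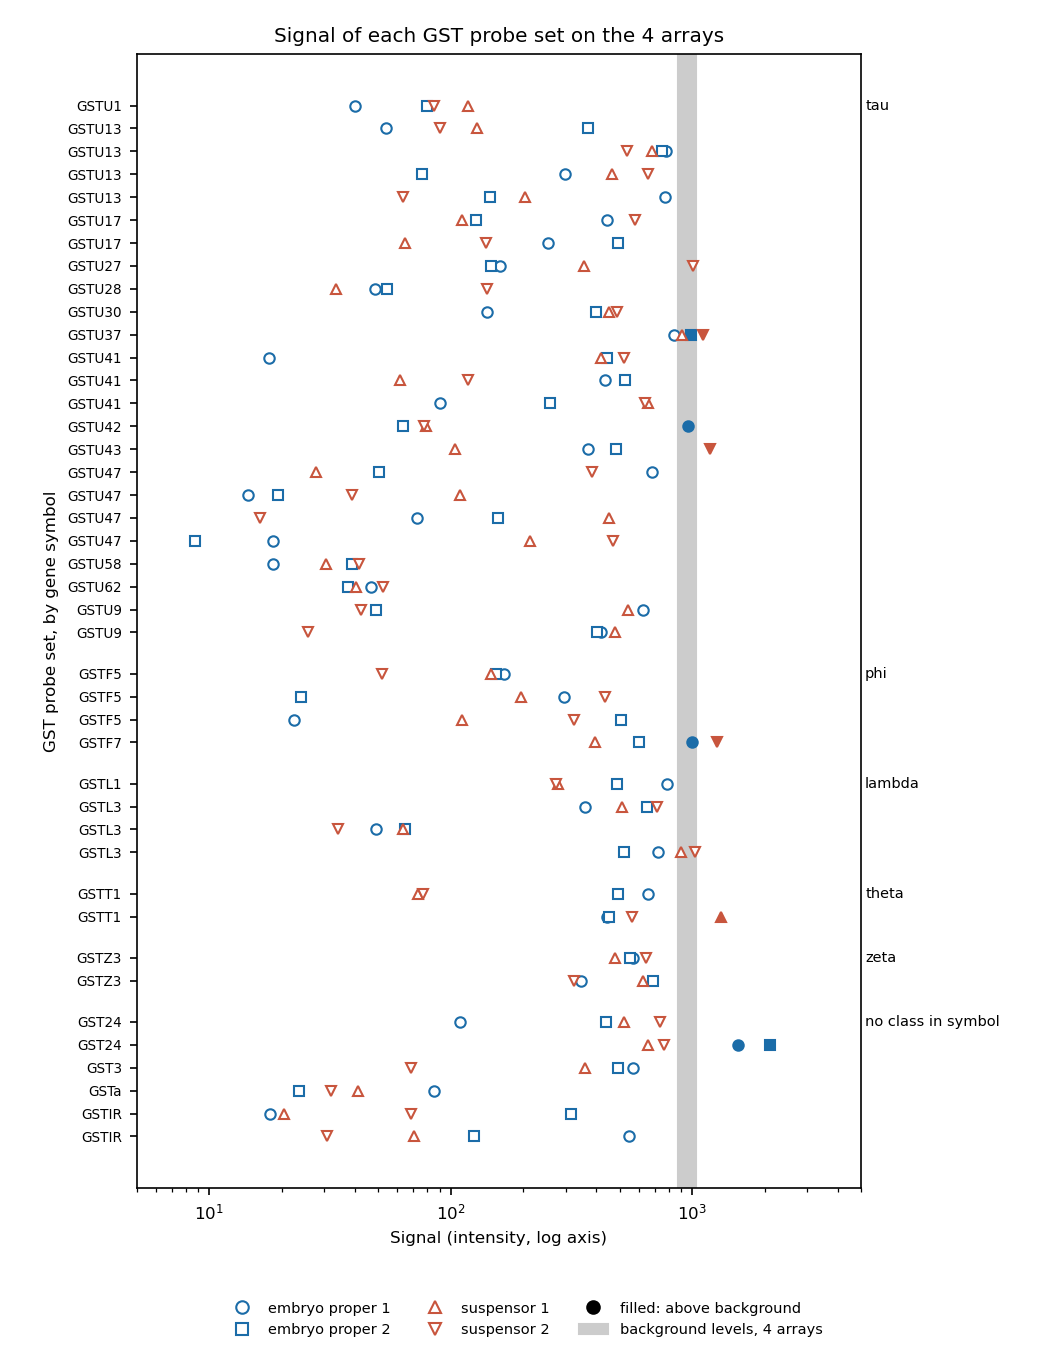
Signal (intensity, log axis) of each of the 42 GST probe sets on the 4 arrays, by class; blue circles and squares are embryo proper, red triangles suspensor, and filled symbols are above the background level of their own array. The grey band spans the 4 background levels, 873 to 1034, and 9 of the 168 symbols are filled.

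Tau signals lay near the middle of the pathogen range. The median tau signal was 206 and 146 in embryo proper, against 166 and 141 in suspensor, where the median pathogen signal was 125 and 130 in embryo proper, against 133 and 158 in suspensor. In rank, the median tau probe set stood at percentiles 59.4 and 52.3 of the pathogen probe sets on the embryo proper arrays, against 53.6 and 47.7 on the suspensor arrays. The median phi probe set stood at percentiles 61.6 and 67.9 in embryo proper, against 54.7 and 67.1 in suspensor. The median of the 4 lambda probe sets was at percentiles 82.1 and 82.5 in embryo proper, against 72.6 and 73.1 in suspensor. That of the 2 zeta probe sets was at 78.8 and 87.8 in embryo proper, against 82.9 and 73.1 in suspensor, and that of the 2 theta probe sets at 84.3 and 80.3 in embryo proper, against 66.5 and 55.1 in suspensor. None of these medians reached the level that counted as background. The median of all soybean probe sets was between percentiles 68.7 and 72.2.

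A lower background level brought in more GST values, as it did for other probe sets. Above the 75th percentile of the pathogen probe sets, which leaves 25% of those above, were 41.1% of GST values, 35.4% of tau values and 45.6% of all soybean values. At the 90th percentile the shares were 12.5% for GSTs, 11.5% for tau and 29% for all soybean probe sets. At the 99th percentile 1.19% of GST values remained against 12.7% for all soybean probe sets. GST values thus stood above the pathogen share at the 75th percentile and close to it from the 90th upward. Of the 42 probe sets, 12 were above the median of the pathogen probe sets on all 4 arrays, and 7 on none.

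**Figure D3:**
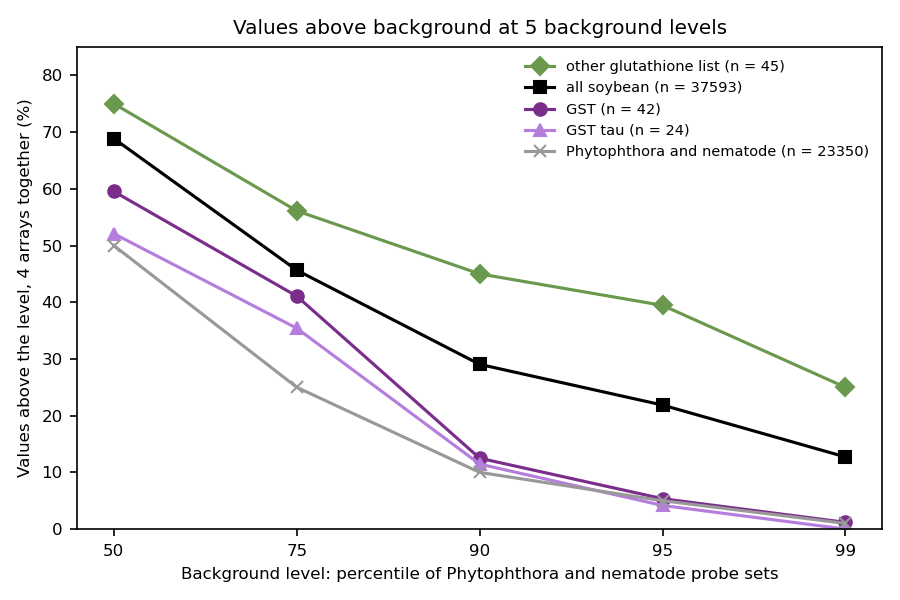
Share of values above background (%, 4 arrays together) when the level is set at 5 percentiles of the pathogen (Phytophthora and nematode) probe sets, for 5 sets of probe sets. The GST and tau lines lie between those of all soybean and of pathogen probe sets at the 50th and 75th percentiles and close to the latter from the 90th percentile on.

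The difference between regions was tested for the probe sets that exceeded background on 2 or more of the 4 arrays, which are 8972 of all soybean probe sets and 3 of the 42 GST probe sets. These are GSTU37 of the tau class, GSTF7 of the phi class and 1 of the 2 GST24 probe sets. None of the 3 passed in limma at an adjusted p under 0.05, where 2.75% of all tested probe sets did. Of the 3, 1 had an unadjusted p under 0.05, beside 20.1% of all tested probe sets.

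GSTU37 gave a signal close to the background level on all 4 arrays. Its values were 838 and 986 in embryo proper, against 909 and 1105 in suspensor. The regions overlap, and in each region the array numbered 1 was below its background level and the array numbered 2 above it. The log2 difference, suspensor minus embryo proper, was 0.14 with a standard error of 0.47 and a 95% interval from -0.97 to 1.25 (adjusted p = 0.90, limma). Its sign turned, to -0.03, when arrays were centred on the pathogen probe sets. The interval is wide, so the test does not show that the regions are alike.

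GSTF7 was the phi member above background, on 1 array of each region. Its values were 998 and 600 in embryo proper, against 397 and 1270 in suspensor, so both the lowest and the highest value came from the suspensor. The log2 difference was -0.12 with a standard error of 0.75 and a 95% interval from -1.89 to 1.66 (adjusted p = 0.95, limma). It became 0.70 without suspensor replicate 1 and 0.004 when arrays were centred on the tested median, so no direction is given. GSTU37 and GSTF7 are the tested members of their classes, so the median difference of tested probe sets was 0.14 for tau and -0.12 for phi, beside -0.18 for all tested soybean probe sets. Each rests on 1 probe set, and the difference between the classes was not tested.

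GST24 was the GST symbol furthest above background on both embryo proper arrays. Its values were 1544 and 2091 in embryo proper, 1.75 and 2.4 times the background level, and 657 and 764 in suspensor, below background. The regions do not overlap, as was the case in 53.2% of all tested probe sets, but the probe set entered the test through the embryo proper arrays, where it is high. As a bound, which carries no sampling error, the embryo proper signal was 1.82-fold that of the suspensor. The fitted log2 difference was -1.32 with a standard error of 0.43 and a 95% interval from -2.33 to -0.31. It did not pass the test (adjusted p = 0.16, limma). The probe set has shared probes, so it may read more than 1 transcript. The other GST24 probe set, without shared probes, was below background on all 4 arrays, with values of 109 and 441 in embryo proper, against 521 and 738 in suspensor, the opposite order. The symbol GST24 was therefore not measured alike by its probe sets. Among the marker lists, a SUT1 probe set ran the same way as the brighter GST24 probe set, with 1500 and 1883 in embryo proper, against 78.1 and 286 in suspensor, and so did an EXP2 probe set, with 2330 and 1595 in embryo proper, against 980 and 753 in suspensor. Neither passed (adjusted p = 0.14 and 0.20, limma), and their part in the GST24 values was not tested. The other tested SUT1 probe set had a log2 difference of 0.14. The other EXP probe sets were not tested and ran both ways, with log2 differences of 1.59 for EXP1, 0.09 for EXP4, and -0.15 and -3.10 for EXP2.

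Of the remaining 39 probe sets, 3 were above background on 1 array and 36 on none. The former are named here because few were above background, after their values were seen. GSTU42 had values of 958 and 63.5 in embryo proper, against 79.3 and 77.6 in suspensor. GSTU43 had 371 and 483 in embryo proper, against 104 and 1187 in suspensor. In each of these tau genes 1 array was more than 10 times its replicate. A GSTT1 probe set of the theta class had 442 and 451 in embryo proper, against 1320 and 565 in suspensor. Both suspensor values were the higher ones, while the other GSTT1 probe set ran the other way, with 659 and 491 in embryo proper, against 73.3 and 76.5 in suspensor, all below background.

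The other 11 tau symbols had no value above background. GSTU13, with 4 probe sets, ranged from 54.1 to 775, GSTU47, also with 4, from 8.7 to 680, and GSTU41, with 3, from 17.7 to 657. GSTU27 reached 1010 on suspensor array 2, just under the background level of 1034 there. GSTU9 ranged from 25.7 to 628, GSTU17 from 64.8 to 582 and GSTU30 from 141 to 488. GSTU58, GSTU62, GSTU1 and GSTU28 had highest values of 41.7, 52.5, 118 and 141. Among phi probe sets, the 3 of GSTF5 ranged from 22.5 to 509. These ranges span both regions and give no order between genes, since probe sets differ in how well they bind.

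The zeta and lambda enzymes stayed below background in both regions. The 2 probe sets of GSTZ3 ranged from 323 to 686, and in both the regions overlapped. Of 3 GSTL3 probe sets the brightest had 724 and 524 in embryo proper, against 897 and 1024 in suspensor, the last also just under the level of 1034. Another GSTL3 probe set had no value over 64.4. GSTL1 had 784 and 490 in embryo proper, against 278 and 272 in suspensor. As both regions were below background, no fold is given for these genes. GST3 ranged from 68.6 to 570, GSTIR from 17.8 to 547 and GSTa from 23.6 to 85.

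Probe sets with the same symbol did not always share a direction. Of the 11 symbols with more than 1 probe set, 8 had probe sets with differences of both signs between regions, namely GSTU13, GSTU17, GSTU41, GSTU47, GSTF5, GSTL3, GSTT1 and GST24. Most of their values were below background. The share of such symbols among all soybean symbols was not computed, so the count is not read as a GST trait. In GSTU41, 1 probe set had 435 and 529 in embryo proper, against 61.6 and 118 in suspensor, while another had 90.4 and 258 in embryo proper, against 657 and 638 in suspensor. Both pairs of regions are separate, as in 40.2% of all soybean probe sets, in opposite orders, and all 8 values are below background. The former has shared probes and may read other transcripts. The third, without shared probes like the second, had 17.7 and 445.5 in embryo proper, against 418 and 523.5 in suspensor. Its mean difference ran as in the second, with overlapping regions.

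Without the filter on dim probe sets, 0 of 42 GST probe sets passed in limma, where 0.654% of all soybean probe sets did, and 3 had an unadjusted p under 0.05, 7.14% beside 9.7% of all 37593 soybean probe sets. These 3 were the brighter GST24 probe set, a GSTT1 and a GSTU47 probe set, and their lowest adjusted p was 0.28, for GSTU47. That GSTU47 probe set had values of 18.3 and 8.7 in embryo proper, against 213 and 469 in suspensor, all below background, and has shared probes. The regions did not overlap in 19 of 42 GST probe sets, or 45.2%, where they did not in 40.2% of all soybean probe sets and in 36.4% of pathogen probe sets. Of these 19, 10 were higher in suspensor and 9 in embryo proper. Over all members, the median log2 difference of these mostly background-level signals was 0.1 for the 24 tau probe sets and 0.22 for the 4 phi probe sets, beside 0.01 for all soybean probe sets and 0.15 for the pathogen probe sets. Members of both classes ran in both directions, from -2.28 to 3.52 in tau and from -0.74 to 1.47 in phi.

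Replicate arrays correlated less over GST probe sets than over all soybean probe sets. Across the 42 GST probe sets, the Pearson correlation of log2 signals between replicates was 0.45 in embryo proper, against 0.53 in suspensor. Across all soybean probe sets it was 0.79 and 0.69, and across pathogen probe sets 0.52 and 0.41. Probe sets of 1 array share its hybridisation and several share probes, so these correlations are descriptions and carry no p. A correlation also depends on the range of signals. On embryo proper array 2 signals reached 2091 over GST probe sets and 699898 over all soybean probe sets, and the part of this range was not tested. The median fold between replicates was 1.67 in embryo proper, against 1.79 in suspensor over GST probe sets, and 1.62 and 1.85 over all soybean probe sets.

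A list of other genes that make, recycle or use glutathione, with neighbouring antioxidant and cysteine synthesis enzymes, matched 45 probe sets with 24 symbols. Of their values 39.4% were above background, a share not tested against that of the GSTs, and 19 of the 45 probe sets were tested. The share varied within the list. The glyoxalase I symbols (GLYI), whose enzymes detoxify methylglyoxal with the help of glutathione, had 3 of 32 values above background, all from 1 probe set of GLYI-7, while the OAS-TL symbols had 28 of 60. In limma 1 of the 19 was higher in suspensor and 0 in embryo proper, where 0.892% and 1.86% of all tested probe sets were. An unadjusted p under 0.05 was found for 4 of the 19, beside 20.1% of all tested probe sets. The median log2 difference of the 19 was 0.19, beside -0.18 for all tested probe sets. The 19 ran both ways, from -2.04 for a SAT1 probe set to 3.04 for OAS-TL2. Those lower in suspensor included a CAT4 probe set (-1.87) and HGS (-0.23), so the members named with values here and below do not stand for the list. The called probe set was OAS-TL7, an enzyme of cysteine synthesis, which supplies a building block of glutathione, with 2850 and 2363 in embryo proper, against 13499 and 23012 in suspensor (log2 difference 2.76, adjusted p = 0.018). The other 2 OAS-TL7 probe sets were below background on all 4 arrays, with no value over 112.

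The nearest relatives of the transferases on that list are the dehydroascorbate reductases, which share the GST fold and use glutathione to regenerate ascorbate. DHAR3 had 6687 and 7074 in embryo proper, against 37913 and 15954 in suspensor. The regions were separate, as in 53.2% of all tested probe sets, and its log2 difference of 1.84 missed the threshold (adjusted p = 0.079, limma). DHAR4 had 2992 and 2321 in embryo proper, against 2868 and 2499 in suspensor, with a log2 difference of 0.02 and a 95% interval from -0.78 to 0.83. Glutathione reductase, GR, which returns oxidised glutathione to its reduced form, had 1 probe set tested, with 1363 and 1317 in embryo proper, against 1120 and 1716 in suspensor and a log2 difference of 0.05. That GR probe set has shared probes. PCS1, a phytochelatin synthase that builds metal-binding peptides from glutathione, had a tested probe set with both embryo proper values below background. Against 368 and 784 there, the suspensor gave 1417 and 1162, a bound of 1.45-fold that carries no sampling error. The log2 difference was 1.23 with a 95% interval from -0.17 to 2.63, which spans both directions. The probe set entered the test through the suspensor arrays, where it is high, and it did not pass (adjusted p = 0.3, limma). It has shared probes. The other PCS1 probe set, without shared probes, was below background on all 4 arrays, with 64.5 and 295 in embryo proper, against 458 and 626 in suspensor.

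**Figure D4:**
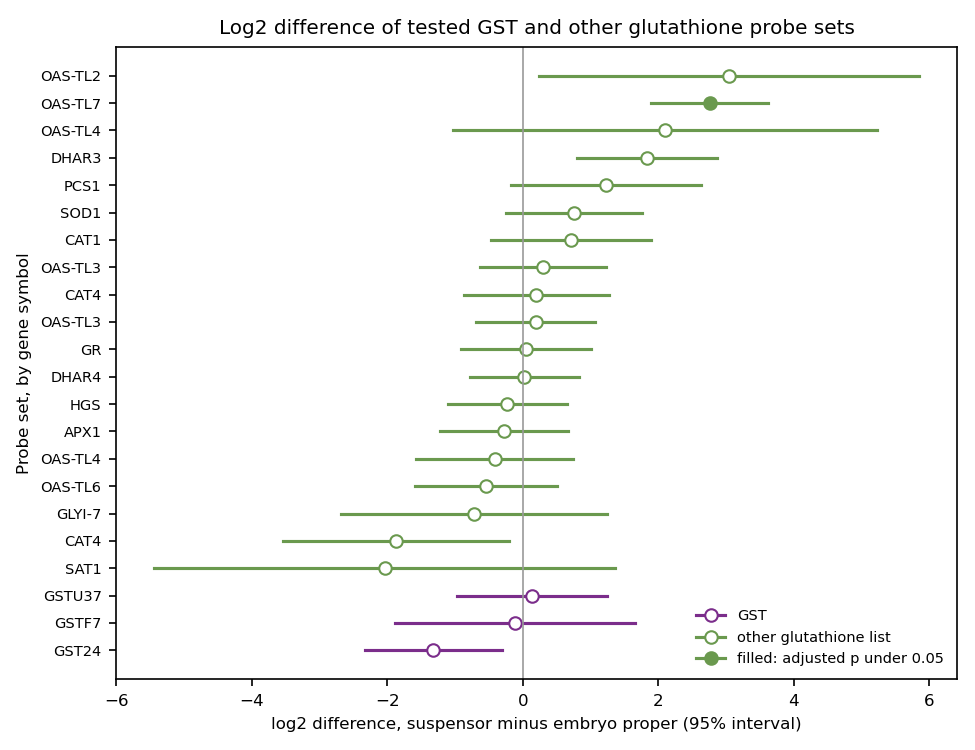
Log2 difference, suspensor minus embryo proper, with 95% intervals from the limma fit, for the 3 tested GST probe sets (purple) and the 19 tested probe sets of the other glutathione list (green); 1 point per probe set, filled where the adjusted p was under 0.05. The OAS-TL7 point is filled and the 3 GST points are open.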

How the data were processed

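Per the submitters' processing notes, the authors made the values with GCOS 1.3. They deposited 1 linear intensity for each probe set and array, and which GCOS algorithm and which presence calls were used is not given in the sources used here. Leaving out 2% of the 61170 probe sets at each end, all 4 arrays had a mean of 500, as scaling to a common target gives, so the authors' scale was kept. Per the labels' protocols, RNA was amplified before labelling, and about 200 ng of cDNA entered it.

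The analysis took log2(intensity + 16), on which a fold understates changes of dim probe sets. Soybean probe sets that exceeded background on 2 or more of 4 arrays were compared between regions in limma 3.58.1 under R 4.3.3 (lmFit, eBayes with a variance trend, Benjamini-Hochberg over all tested), with no block. A bound sets the bright region's mean log2 value against the dim region's, in which a value below the lowest soybean signal over background is raised to that signal. It is not a lower confidence limit. The number of arrays, 2 per region, limits precision. The fit was tested on simulated data drawn with a common spread for all probe sets, and no support is drawn from that here. Symbols came from the platform annotation, and the bean gene table was not used. Tested GST probe sets were named with all values and the others mainly by range. The members and lists were chosen with earlier results of these data known. Alternatives covered pseudocount, scaling, background level, filter, shared probes, variance trend, replicate block and each array left out.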

Additional observations from a re-analysis of the deposited data

Results flagged for a closer look

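One of the 4 probe sets whose annotation joins a GST symbol with another symbol, which the comparison of GST members does not use, was above the background level on 2 arrays, with a signal of 1644 on embryo proper array 1 and 1251 on suspensor array 2. On embryo proper array 2 and suspensor array 1 it was below background, at 683 and 607, and it has shared probes.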

How the results depend on the processing

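GST probe sets called numbered 0 under each of the 16 alternatives, with the lowest adjusted p of a setting between 0.12 and 0.99 (none tested when all 4 arrays had to exceed background, and 1 to 3 when 1 array was left out). GST probe sets exceeding background on 2 or more arrays, 3 as reported (tau 1, phi 1), were 1 (tau 0, phi 0) at the 99th percentile. With levels chosen after seeing the data they were 5 (tau 2) at the 90th, 22 (tau 11) at the 75th and 31 (tau 17, phi 4) at the 50th percentile. Centring on pathogen probe sets turned the difference of GSTU37 to -0.028. That of GSTF7 turned to 0.0039 with centring on the tested median, and it was 0.70 without suspensor replicate 1 and -0.48 without embryo proper replicate 2. GSTU37 was 0.02 without embryo proper replicate 1 and 0.28 without suspensor replicate 1, and was not tested without either array numbered 2. GST24 stayed between -1.49 and -1.20 over the 11 alternatives that tested it. It was not tested without either embryo proper array, without shared probes or when all 4 arrays had to exceed background. All soybean probe sets called, 247 as reported (80 higher in suspensor, 167 in embryo proper), were 418 after quantile normalization (185 and 233), 427 at the 99th percentile, 526 when all 4 arrays had to exceed background, 106 without shared probes, 87 without a variance trend and 430 with the replicate block. Leaving out 1 array, with the lone one taken to be as variable as the other group, gave 132 and 87 without embryo proper replicate 1 or 2 and 1421 and 430 without suspensor replicate 1 or 2. Stricter filters test fewer probe sets; otherwise the cause was not tested. The median log2 difference of tested probe sets, -0.18, was -0.06 with tested-median centring and -0.35 with pathogen centring. Pairing was not assumed, because the labels do not say what a shared replicate number stands for. The deviations of arrays with the same number had a correlation of -0.024 over tested probe sets, and the replicate block called 0 GST probe sets. Signal over background limits the rest: 36 of 42 GST probe sets exceeded background nowhere.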
